A study of Mus musculus with 4 samples.

Results

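A set of 10 genes of non-collagen extracellular matrix were followed in mouse osteoclast precursors without the mechanosensitive channel Piezo1. They were chosen by name, as thrombospondins (Thbs1, Thbs2, Thbs3), the fibrillin Fbn1, fibronectin (Fn1), the matricellular glycoproteins Sparc and Postn, and the small leucine-rich proteoglycans Bgn, Dcn and Lum, provided that they were present in the deposited table. All 10 of the 10 were present, among 12799 genes, and all 10 passed a filter of 1 CPM in at least 2 libraries, as did 11781 genes in all. Presence in the table was the measured value that chose them, and the lowest present was Lum, at a mean of 1.14 CPM in knockouts and 1.41 CPM in controls. No named gene fell outside the table, so there were no values just below that limit.

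The series holds 4 libraries of poly(A) RNA from bone marrow-derived monocytes of 12-week-old female mice, cultured for 3 days with M-CSF at 30 ng/mL and RANKL at 50 ng/mL, the cytokines that turn monocytes into osteoclasts. The knockout libraries (n = 2) came from Csf1r-iCre;Piezo1fl/fl mice, in which a Cre recombinase driven by the promoter of the M-CSF receptor gene deletes Piezo1 in the monocyte lineage. The control libraries (n = 2) came from Piezo1f/f mice, which carry the same flanked alleles and no Cre, so that effects of the transgene cannot be told apart from those of losing Piezo1. Cells entered the cultures as the non-adherent fraction of whole marrow. Recovered depths were 14997205 and 18897927 reads in knockouts 1 and 2 and 15320308 and 14122118 reads in controls 1 and 2. Piezo1 itself had 61.0 and 56.2 CPM in the knockouts and 430.1 and 384 CPM in the controls, so it stood at 14.4% of the control mean. Macrophage and osteoclast markers marked the cells as labelled, with Csf1r at 1439.9 CPM in knockouts and 1314 CPM in controls and Ctsk at 25116 CPM in knockouts and 23442 CPM in controls.

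Matricellular proteins are secreted into the matrix and act mainly as signals there, by binding integrins, growth factors and proteases, while fibronectin and fibrillin also build fibrils. Fibrillin microfibrils hold the latent complexes of TGF-beta, and thrombospondin-1 can release the active factor from them. Small leucine-rich proteoglycans sit on collagen fibrils and set their spacing. In bone these genes are chiefly products of osteoblasts, fibroblasts and other mesenchymal cells. Macrophages are well known to make fibronectin and thrombospondin-1 as well.

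The 7 abundant members stood at 46.2% to 67.2% of the control mean in knockout libraries, and the intervals of the 3 scarce ones crossed 0. Thbs1 and Fbn1 fell at an adjusted p under 0.05 in limma, fitted and adjusted over all 11781 genes. That is 2 of 10 members, where 0.119% of all tested genes fell by the same test. Both knockout libraries lay below both control libraries for 8 of 10 members, against 15.4% of all tested genes, and 0 lay above, against 16.5%. A log2 fold change of −0.5 or lower was found for 7 of 10, against 3.50% of all genes. The same 7 had an unadjusted p under 0.05 in the lower direction, which 3.55% of all genes had, and were called lower by DESeq2, which called 0.475% of all genes lower. The median log2 fold change was −0.68 over the members and 0.00 over all genes. These counts describe a list that was drawn up with earlier results of these data known.

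**Figure D1:**
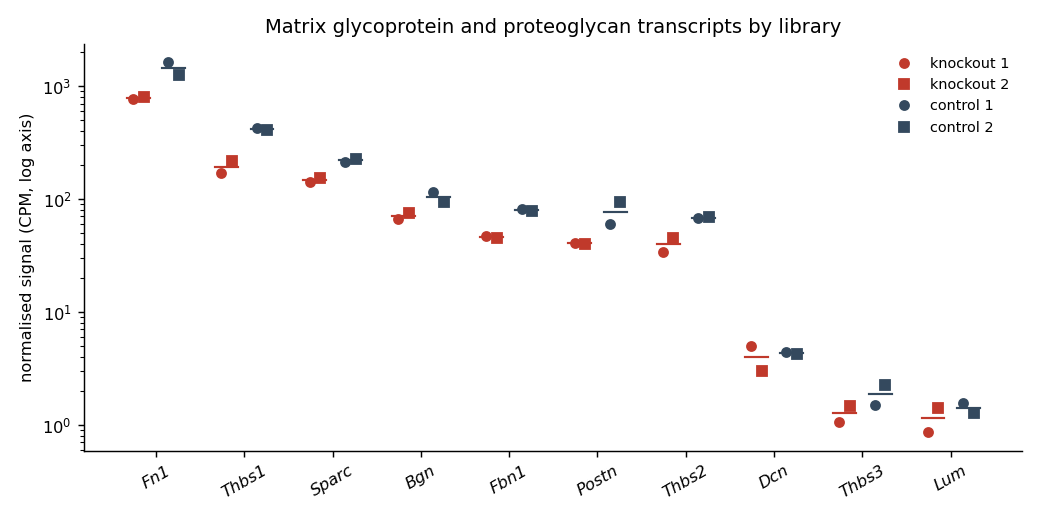
Normalised signal of the 10 genes (CPM, log axis) in each library, with knockouts in red left of controls in dark blue, circles for replicate 1, squares for replicate 2 and bars for group means. Knockout points lie below both control points for the 7 genes at the left and for Thbs3, and the groups overlap for Dcn and Lum.

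Thbs1 encodes thrombospondin-1, a trimeric glycoprotein that binds the cell-surface receptors CD36 and CD47 (ENSMUSG00000040152.8; GRCm38 chromosome 2, 118111876 to 118127133, plus strand, protein-coding). It had 169 and 218 CPM in knockouts 1 and 2, against 425 and 411 CPM in controls 1 and 2. The control libraries were within 1.04-fold of each other, the knockouts within 1.29-fold, and the groups did not overlap. Thbs1 thus fell to 193 ± 34.7 CPM in knockouts, against 418 ± 10.4 CPM in controls (SD, n = 2 each), with a log2 fold change of −1.12 (SE 0.13, 95% confidence interval −1.42 to −0.82, limma adjusted p = 0.0284). edgeR on the recovered reads gave an adjusted p of 0.0356. The call did not hold without control 1 (adjusted p = 0.177) or without control 2 (adjusted p = 0.237), and the log2 fold change was −0.94 without knockout 1.

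Thbs2, the closest relative of Thbs1 and a product of fibroblasts (chromosome 17, 14665500 to 14694235, minus strand), had 33.7 and 45.3 CPM in knockouts, against 67.3 and 69.5 CPM in controls. The groups did not overlap, and knockout 1 was the lowest library, as for Thbs1. Its log2 fold change was −0.80 (SE 0.14, interval −1.14 to −0.46), and it did not pass in limma (adjusted p = 0.175) but did in DESeq2 on the recovered reads (adjusted p = 0.0015). With each library left out in turn, its log2 fold change was −1.01 to −0.59. Thbs3, a pentameric family member expressed in many tissues (chromosome 3, 89215180 to 89226837, plus strand), was near the limit of measurement. It had 16 and 27 reads in knockouts and 23 and 32 reads in controls, or 1.06 and 1.47 CPM in knockouts and 1.49 and 2.24 CPM in controls. Poisson intervals (95%), which cover counting error alone, ran from 0.604 to 1.71 and from 0.967 to 2.14 CPM in the knockouts, and from 0.947 to 2.24 and from 1.53 to 3.16 CPM in the controls, so that they overlapped. In the annotation 318 exonic bases of Thbs3 are shared with Mtx1 on the opposite strand. Since no source used here states whether counting respected strand, the Thbs3 count is uncertain.

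Fbn1 encodes fibrillin-1, the main protein of microfibrils (ENSMUSG00000027204.13; chromosome 2, 125300594 to 125507993, minus strand). Its values were 46.6 and 45.1 CPM in knockouts and 80.7 and 77.9 CPM in controls, with replicates within 1.03-fold and 1.04-fold of each other. Fbn1 fell to 45.9 ± 1.04 CPM in knockouts, against 79.3 ± 1.99 CPM in controls (SD, n = 2 each; log2 fold change −0.78, SE 0.09, interval −1.0 to −0.56, limma adjusted p = 0.0357). As for Thbs1, the call was lost without control 1 (adjusted p = 0.256) or control 2 (adjusted p = 0.286), while the log2 fold change stayed between −0.81 and −0.76 when any library was left out. An antisense gene, Gm9913, shares 2442 exonic bases with Fbn1, and reads from it cannot be told apart from those of Fbn1 if the counting was unstranded. The same holds for 208 exonic bases that Thbs1 shares with Gm29233 and 292 that Fn1 shares with Apol7d, both on the opposite strand. Thbs1 and Fbn1 lie on the same chromosome, 7.17 Mb apart.

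Fn1 encodes fibronectin, which cells bind through integrin alpha5 beta1 and stretch into fibrils (ENSMUSG00000026193.15; chromosome 1, 71585520 to 71653200, minus strand). It was the most abundant member, with 771 and 796 CPM in knockouts and 1621 and 1263 CPM in controls. The knockouts agreed within 1.03-fold and the controls differed 1.28-fold, and the groups did not overlap. The knockout mean was 54.3% of the control mean, with a log2 fold change of −0.87 (SE 0.14, interval −1.19 to −0.55), which did not pass in limma (adjusted p = 0.111) and passed in DESeq2 (adjusted p = 5.75e-08). Left out in turn, the libraries gave log2 fold changes of −1.05 to −0.69.

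Sparc encodes osteonectin, a collagen-binding glycoprotein abundant in bone matrix (chromosome 11, 55394500 to 55423183, minus strand). It had 142 and 152 CPM in knockouts, against 212 and 227 CPM in controls. All replicates were within 1.07-fold of each other, and the groups did not overlap. The log2 fold change was −0.58 (SE 0.09, interval −0.80 to −0.37, limma adjusted p = 0.109, DESeq2 adjusted p = 0.000814). The log2 fold change was −0.63 to −0.53 when any library was left out.

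Postn encodes periostin, a matricellular protein named after the periosteum (chromosome 3, 54361109 to 54391037, plus strand). It had 41.0 and 39.6 CPM in knockouts and 60.3 and 93.7 CPM in controls. The controls differed 1.55-fold, more than for any other member, and the knockouts 1.03-fold, yet the lower control still lay above both knockouts. The log2 fold change of −0.89 had the interval −1.33 to −0.45 and did not pass in limma (adjusted p = 0.29). It was −1.21 without control 1 and −0.57 without control 2, so its size rested on which control was kept.

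Of the proteoglycans, Bgn, which encodes biglycan (chromosome X, 73483602 to 73495933, plus strand), had 66.5 and 74.3 CPM in knockouts, against 115 and 94.1 CPM in controls. The groups did not overlap, and the log2 fold change was −0.57 (SE 0.12, interval −0.85 to −0.28, limma adjusted p = 0.303, DESeq2 adjusted p = 0.0312). Dcn, which encodes decorin (chromosome 10, 97479609 to 97518143), and Lum, which encodes lumican (97565128 to 97572703), are neighbours 0.047 Mb apart on the plus strand, and both were scarce. Dcn had 75 and 55 reads in knockouts and 68 and 60 reads in controls, or 4.95 and 2.99 CPM in knockouts and 4.42 and 4.2 CPM in controls. The knockouts lay on either side of the controls, and the log2 fold change of −0.14 had the interval −0.74 to 0.46. Lum had 13 and 26 reads in knockouts and 24 and 18 reads in controls, or 0.858 and 1.41 CPM in knockouts and 1.56 and 1.26 CPM in controls, with a log2 fold change of −0.24 and the interval −0.94 to 0.46. A difference of the size seen for Sparc or Bgn lies inside the intervals of Dcn, Lum and Thbs3, so it was not excluded for these genes.

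Relative to exon length, which allows levels of different genes to be compared, fibronectin led in both genotypes. Fn1 had 66.0 and 68.1 CPM per kb of exon in knockouts and 139 and 108 CPM per kb in controls. Sparc followed in the knockouts, with 37.4 and 40.0 CPM per kb against 27.8 and 35.8 CPM per kb for Thbs1. In the controls that order was turned round, with 56.0 and 60.1 CPM per kb for Sparc and 70.1 and 67.6 CPM per kb for Thbs1. Bgn came next, at 10.9 and 12.2 CPM per kb in knockouts and 18.9 and 15.4 CPM per kb in controls. Below it, Thbs2 and Postn overlapped in the controls, at 9.62 and 9.93 against 6.93 and 10.8 CPM per kb. Fbn1 lay under both, at 3.84 and 3.72 CPM per kb in knockouts and 6.66 and 6.42 CPM per kb in controls. Dcn, Lum and Thbs3 were all under 0.85 CPM per kb in every library, and Dcn and Lum overlapped in the knockouts.

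The 250 bases before the RefSeq start (GRCm38.p6) hold no annotated exon for Postn, Thbs2, Bgn and Thbs3. Those of the first 3, the abundant ones, are shown because they differ in makeup. There is a TATA word close to the Postn start shown and a GC-rich run before that of Bgn, and motif matches are in capitals. RefSeq windows matched Thbs2, Thbs3, Fbn1, Sparc, Postn and Bgn, 6 of the 10 members. The Postn window is chr3:54360857-54361106 on the plus strand, the Thbs2 window chr17:14694263-14694512 on the minus strand and the Bgn window chrX:73483351-73483600 on the plus strand, each written 5′ to 3′ along the gene.
Postn: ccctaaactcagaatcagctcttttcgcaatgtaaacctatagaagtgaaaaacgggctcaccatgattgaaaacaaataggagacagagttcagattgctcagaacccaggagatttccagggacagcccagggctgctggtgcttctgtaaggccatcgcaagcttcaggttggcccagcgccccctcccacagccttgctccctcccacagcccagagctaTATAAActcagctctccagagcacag
Thbs2: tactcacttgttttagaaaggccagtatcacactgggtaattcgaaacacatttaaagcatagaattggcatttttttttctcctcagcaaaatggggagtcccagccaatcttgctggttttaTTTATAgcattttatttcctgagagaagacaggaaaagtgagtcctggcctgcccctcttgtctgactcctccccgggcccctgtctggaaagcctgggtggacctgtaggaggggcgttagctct
Bgn: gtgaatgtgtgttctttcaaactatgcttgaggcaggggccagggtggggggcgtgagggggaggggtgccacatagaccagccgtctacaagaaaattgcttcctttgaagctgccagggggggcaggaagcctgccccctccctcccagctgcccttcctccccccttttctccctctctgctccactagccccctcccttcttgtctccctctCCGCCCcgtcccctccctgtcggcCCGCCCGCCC
The 6 motifs were searched on both strands in those 250 bases of all 32851 windows of the table, of which 7 belonged to members since Postn has 2 starts. TATAAA was found 26 to 21 bases before the Postn start shown, and not in the window of its other start. On the opposite strand it lay 126 to 121 bases before the start of Thbs2, and 12.4% of all windows hold it. GGGCGG, the GC box, matched Bgn at 3 places, 2 of them overlapping, as well as Fbn1 and Thbs3, and 32.7% of all windows hold it. The AP-1 motif TGANTCA (6.75% of windows), the TEAD motif GGAATG (12.6%), the CArG box (1.47%) and the PU.1 motif GAGGAAGT (2.44%) were found in 0 of the 7 member windows, which says only that these letters are not in these windows.

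The members were divided by where they are known to be made, to ask whether those that macrophages also make were lower by as much as those made mainly by connective tissue cells. Thbs1 and Fn1 formed the first class, and Thbs2, Fbn1, Sparc, Postn, Bgn, Dcn and Lum the second, while the widely expressed Thbs3 was put in neither. The pair that macrophages also make had log2 fold changes of −1.12 and −0.87, with a median of −1.0. The connective tissue class ran from −0.89 to −0.14 with a median of −0.58. Without the scarce Dcn and Lum the classes lay closer. Over the 5 connective tissue members with a mean of 10 CPM or more, the median was −0.78 and the range −0.89 to −0.57. The interval of Fn1, −1.19 to −0.55, held the fold changes of all 5, and that of Thbs1, −1.42 to −0.82, held only that of Postn. The intervals of Thbs2 (−1.14 to −0.46), Fbn1 (−1.0 to −0.56), Postn (−1.33 to −0.45) and Bgn (−0.85 to −0.28) overlapped that of Thbs1. That of Sparc (−0.80 to −0.37) did not, and differences between genes were not tested. Summed over each class, the pair that macrophages also make reached 939.6 and 1013 CPM in knockouts and 2047 and 1674 CPM in controls (52.5% of the control mean). The connective tissue class reached 335 and 360.4 CPM in knockouts and 542 and 568 CPM in controls (62.7%). Whether the transcripts of Thbs1 and Fn1 came from macrophages or from other cells in these cultures was not measured, and in bulk RNA fewer cells of a type and less RNA per cell cannot be told apart.

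**Figure D2:**
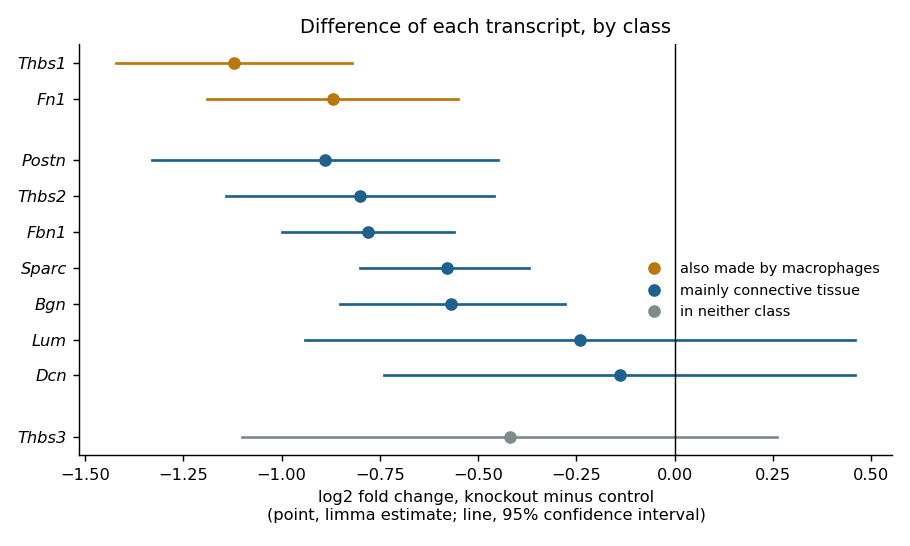
Log2 fold change, knockout minus control, of each gene (point, limma estimate; line, 95% confidence interval), grouped by whether macrophages are also known to make it. The estimate of Thbs1 (−1.12) lies beyond the range of the 5 abundant connective tissue genes (−0.89 to −0.57) and that of Fn1 (−0.87) inside it, and the intervals of Lum, Dcn and Thbs3 cross 0.

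Ratios within a library, which do not depend on its scaling, were then compared for Thbs1 and Fn1 against each of the 5 abundant connective tissue members, 10 pairs in all. The log2 ratio of Thbs1 to Sparc was 0.25 and 0.52 in knockouts and 1.00 and 0.85 in controls. That of Thbs1 to Bgn was 1.34 and 1.55 in knockouts and 1.88 and 2.13 in controls, and that of Thbs1 to Fbn1 was 1.86 and 2.27 in knockouts and 2.40 and 2.40 in controls. Both knockouts lay below both controls in 4 of the 5 ratios of Thbs1, Postn being the exception, with mean differences of −0.56 to −0.23. For Fn1 this held in 2 of 5, those to Sparc (2.44 and 2.39 in knockouts, 2.93 and 2.47 in controls) and to Bgn (3.54 and 3.42 in knockouts, 3.81 and 3.75 in controls), and the differences ran from −0.30 to 0.03. By comparison, the ratio of Thbs1 was lower in both knockouts against 99.2% of 8161 genes with a mean of 10 CPM or more, and that of Fn1 against 97.9%. With 2 libraries against 2, an exact permutation test of any such ratio cannot go below p = 0.3333 (2-sided), and no other test of the ratios was run.

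**Figure D3:**
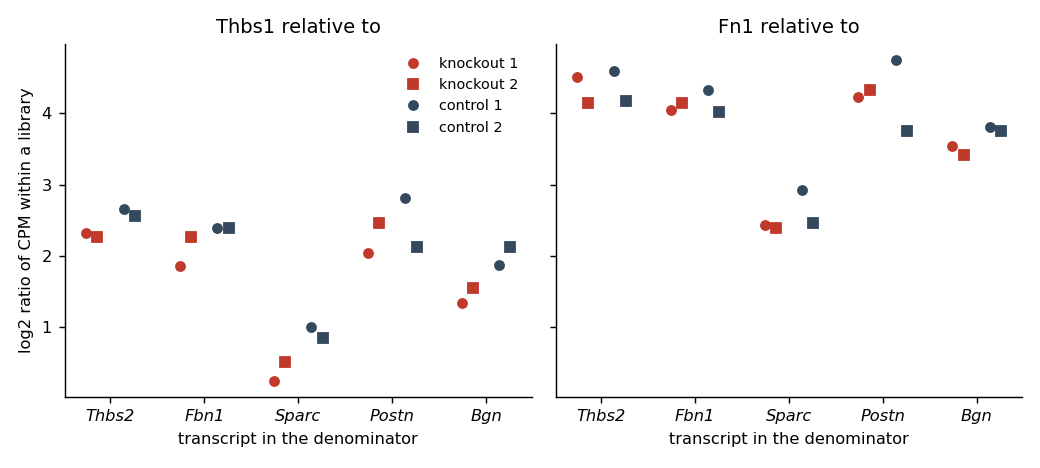
Log2 ratio of the CPM of Thbs1 (left) and of Fn1 (right) to that of 5 connective tissue transcripts within each library, with knockouts in red left of controls in dark blue. For Thbs1 the knockout points lie below both control points against Thbs2, Fbn1, Sparc and Bgn, whereas for Fn1 they overlap the controls against Thbs2, Fbn1 and Postn.

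Markers of connective tissue cells that are no members had a median log2 fold change of −0.41. Of 25 listed stromal, fibroblast and osteoblast markers, 22 were tested, with 18 negative and 4 positive values. In limma 0 passed, and DESeq2 called 5 lower, against 0.475% of all tested genes. An unadjusted p under 0.05, in either direction here and in the lists below, was found for 11, Kitl alone being higher in knockouts. In the lower direction alone, 3.55% of all tested genes had such a p. Their summed level was 2082 and 1709 CPM in knockouts and 2585 and 3139 CPM in controls, led by Col1a2 (479 ± 38.9 CPM in knockouts, 742 ± 88.8 CPM in controls) and Col1a1 (375 ± 15.1 CPM in knockouts, 659.5 ± 139 CPM in controls). The 4 positive values were those of Kitl, Lepr, Alpl and Cxcl12, singled out after their values were seen. Kitl, the stromal ligand of the receptor Kit, had 40.6 and 33.3 CPM in knockouts and 30.5 and 27.6 CPM in controls (log2 fold change 0.34), and the chemokine Cxcl12 of marrow stroma had 43.9 and 27.4 CPM in knockouts and 34.6 and 33.0 CPM in controls (0.04). Lepr and Alpl had log2 fold changes of 0.14 and 0.05. Smooth muscle and pericyte markers summed to 93.1 and 138 CPM in knockouts and 173 and 216 CPM in controls, with 6 of 6 tested members negative, 0 passing in limma, 4 at an unadjusted p under 0.05 and 3 called lower by DESeq2, led by Acta2 at 86.3 ± 24.5 CPM in knockouts and 142 ± 27.4 CPM in controls. The part of these cell types in the values of the members was not tested.

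Within a genotype the members differed in whether their libraries had the order of the stromal sum. Of the knockouts, knockout 1 had the higher stromal sum, at 72.7% of the control mean against 59.7% in knockout 2. The markers in that sum differed in order, as examples picked after their values were seen show. In knockouts 1 and 2, Col6a1 had 173 and 90.7 CPM, Col1a1 386 and 365 CPM and Col5a1 113 and 120.4 CPM. Thbs1 was lower in knockout 1 than in knockout 2 (40.3% and 52.1% of the control mean), as were Thbs2 (49.3% and 66.2%), Sparc (64.4% and 69.0%) and Bgn (63.4% and 70.9%). The smooth muscle sum, led by Acta2 at 68.9 and 104 CPM in knockouts 1 and 2, was 47.9% in knockout 1 and 71.2% in knockout 2. Fbn1 (58.7% in knockout 1, 56.9% in knockout 2) and Postn (53.2% and 51.5%) were nearly level, as was Fn1 (53.5% and 55.2%). Of the controls, control 2 had the higher stromal sum (109.7%, against 90.3% in control 1), and Postn was higher there too (122% in control 2, 78.3% in control 1). Fn1 (87.6% in control 2, 112% in control 1) and Bgn (89.8% in control 2, 110% in control 1) were lower there. The others were closer to level, with Thbs1 and Fbn1 each at 98.2% in control 2 and 102% in control 1, Thbs2 at 102% in control 2 and 98.4% in control 1, and Sparc at 103% in control 2 and 96.5% in control 1. These are single libraries, and their differences were not tested.

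Platelets and megakaryocytes also carry Thbs1 and Sparc, and their part in the values of these genes was not tested. Their markers were few and low in both genotypes. Of 12 listed, 5 were tested and 0 were negative, summing to 18.2 and 14.1 CPM in knockouts and 12.1 and 15.7 CPM in controls, with 0 passing in either limma or DESeq2 and 0 at an unadjusted p under 0.05. The platelet factor Pf4 led them, at 7.23 ± 2.38 CPM in knockouts and 5.54 ± 0.61 CPM in controls. Of endothelial markers 1 of 9 was tested, Kdr, at 2.77 ± 0.38 CPM in knockouts and 3.35 ± 0.61 CPM in controls, and the other small lists, adipocyte and B and T cell markers, had 2 tested members each. Neutrophil markers summed to 55.6 and 54.8 CPM in knockouts and 47.4 and 87.8 CPM in controls. Macrophage markers summed to 3874 and 4154 CPM in knockouts and 4036 and 3424 CPM in controls, and osteoclast markers to 63312 and 78185 CPM in knockouts and 65547 and 62397 CPM in controls. In both of these lists 0 members passed in either limma or DESeq2, with 0 macrophage and 1 osteoclast marker at an unadjusted p under 0.05, and medians of 0.12 and 0.10.

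**Figure D4:**
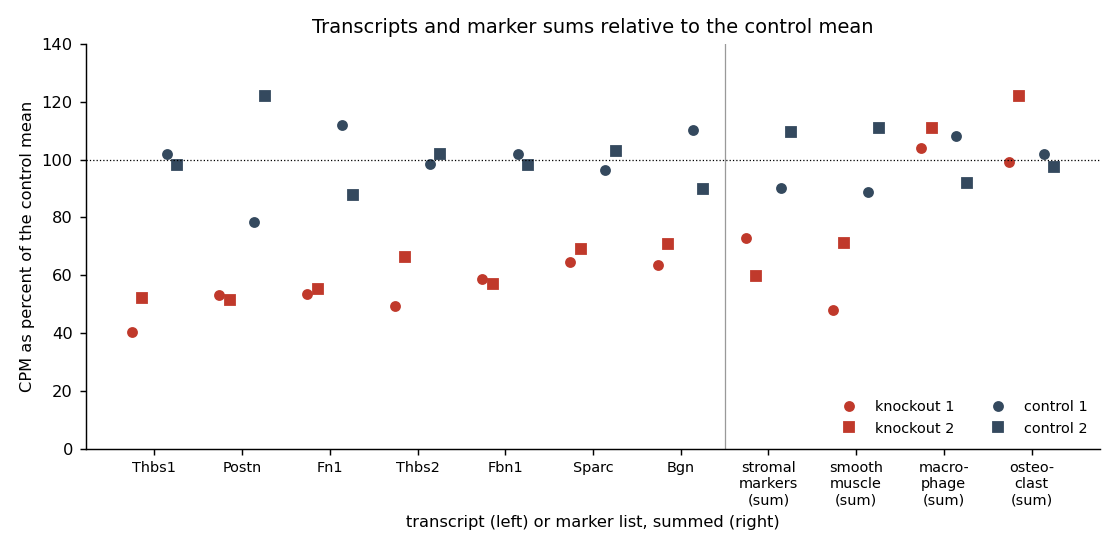
CPM of the 7 abundant genes (left) and summed CPM of 4 marker lists (right) as percent of the control mean, with knockouts in red left of controls in dark blue, circles for replicate 1 and squares for replicate 2. The genes sit at 40.3% to 70.9% of the control mean in knockouts and the summed stromal markers at 72.7% and 59.7%, while the macrophage and osteoclast sums of the knockouts lie above 90% of the control mean.

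The partners of these proteins were described from 5 lists. Of 21 receptors and co-receptors, such as the thrombospondin receptors Cd36 and Cd47 and the integrin subunits that bind fibronectin, 21 were tested and 0 passed in limma or DESeq2. An unadjusted p under 0.05 was found for 3, and the list had a median log2 fold change of −0.08. Those with the smallest p were Sdc2, Sdc4, Lrp1 and Itga5, the last not under 0.05. Sdc2 had 12.5 and 10.7 CPM in knockouts and 14.8 and 15.6 CPM in controls (log2 fold change −0.38, limma adjusted p = 0.983). The syndecan Sdc4, a fibronectin co-receptor, had 192 and 193 CPM in knockouts and 165 and 168 CPM in controls (log2 fold change 0.21, as the first value in brackets is for the partners named after it, limma adjusted p = 0.987). Lrp1, which clears thrombospondins from the cell surface, had 398 and 262 CPM in knockouts and 476 and 408 CPM in controls (−0.45, adjusted p = 0.9998). Itga5, the alpha chain of the main fibronectin receptor, had 123 and 123 CPM in knockouts and 146 and 134 CPM in controls (−0.18).

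Among elastic fibre and microfibril genes, 12 of 21 listed were tested and 0 passed in limma or DESeq2. There were 5 with an unadjusted p under 0.05, 9 negative and 3 positive values and a median of −0.33. Fbln2, a fibulin that binds fibrillin and fibronectin, had 28.8 and 36.7 CPM in knockouts, against 47.6 and 52.8 CPM in controls (−0.62, limma adjusted p = 0.326). Fbln5, needed for elastic fibre assembly, had 1.85 and 2.01 CPM in knockouts and 4.03 and 3.71 CPM in controls (−0.85). Ltbp1, which anchors latent TGF-beta to microfibrils, had 15.5 and 14 CPM in knockouts and 17.9 and 24.0 CPM in controls (−0.48). The protease gene Adamts10 had a log2 fold change of −0.47.

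Of 27 other matricellular genes 13 were tested, with 11 negative and 2 positive values and a median of −0.43. In limma 1 fell and in DESeq2 3, against 0.119% and 0.475% of all tested genes. The gene that fell in limma was Ccn2, a connective tissue growth factor, at 51.7 and 50.6 CPM in knockouts and 93.9 and 110.3 CPM in controls (−0.99, adjusted p = 0.0236). Tnc, the matricellular protein tenascin-C, had 118 and 103 CPM in knockouts, against 167 and 175 CPM in controls (−0.63, limma adjusted p = 0.111), and Ccn1 had 21.4 and 19.95 CPM in knockouts and 32.9 and 36.8 CPM in controls (−0.74). Smoc1, a relative of Sparc, had 9.24 and 12.9 CPM in knockouts and 16.8 and 20.9 CPM in controls (−0.75, limma adjusted p = 0.493).

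Of 22 other proteoglycans 13 were tested and 0 passed in limma, with 4 at an unadjusted p under 0.05 and a median of −0.22. DESeq2 called 1 lower, against 0.475% of all tested genes. The one called was Hspg2, the basement membrane proteoglycan perlecan, at 47.0 and 54.8 CPM in knockouts and 78.7 and 73.1 CPM in controls (−0.57, limma adjusted p = 0.217, DESeq2 adjusted p = 0.0313). Vcan, which encodes versican, had 21.5 and 18.7 CPM in knockouts and 28.8 and 25.5 CPM in controls (−0.43), and the glypicans Gpc4 and Gpc6 had log2 fold changes of −1.01 and −0.64. Gpc4 averaged 2.78 CPM in knockouts and 6.04 CPM in controls, and Gpc6 1.92 CPM in knockouts and 3.26 CPM in controls.

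In the list of TGF-beta ligands, receptors and direct targets, 20 of 20 were tested, with a median of −0.10. In limma 2 fell, against 0.119% of all tested genes, and 18 did not pass. Inhba, which encodes a subunit of activin, had 15.4 and 15.4 CPM in knockouts and 39.8 and 56.4 CPM in controls (−1.59, limma adjusted p = 0.0236). Pmepa1, a TGF-beta target that restrains the pathway, had 36.8 and 35.5 CPM in knockouts and 63.9 and 58.2 CPM in controls (−0.75, limma adjusted p = 0.0664, DESeq2 adjusted p = 0.00053). Tgfb3, a ligand, had 8.91 and 12.8 CPM in knockouts and 18.2 and 21 CPM in controls (−0.84, limma adjusted p = 0.341).

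Genes with the profiles nearest to 4 of the members were found by the Euclidean distance of log2(CPM + 0.5), centred on the control mean, over the 4 libraries, among 9435 genes with a mean of 5 CPM or more. Near Thbs1 lay Ccdc85c (distance 0.0774), at 10.6 and 12.9 CPM in knockouts and 27.1 and 26 CPM in controls, and Cemip (0.159), which encodes a hyaluronan-degrading protein, at 15.0 and 20.1 CPM in knockouts and 36.8 and 41.3 CPM in controls. Nearest to Fbn1 were Pmepa1 (0.0784), Igfbp7 (0.0993) and Parva (0.11), which encode a TGF-beta regulator, a secreted binding protein and the focal adhesion protein alpha-parvin. Sparc lay nearest to Sytl2 (0.0403), Rcn3 (0.0869) and Ccdc80 (0.0912), and Fn1 to Gm42047 (0.108), Vgll3 (0.211) and H2-T24 (0.24), whose reads can be shared with other class I histocompatibility genes. With 4 libraries such a distance reflects little more than the size of the difference and the order of 2 replicates.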

How the data were processed

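The authors deposited 1 table of normalised signal per gene and library. The submitters' processing notes name STAR, featureCounts, Subread and edgeR and the builds mm10 and GRCm38, without versions. No source used here gives the annotation, the strand setting or the filter on low genes. Every deposited value was a whole multiple of its column's smallest positive value (100% within 0.001 reads, largest deviation 1.1e-09), which gave back reads, and edgeR's TMM-scaled CPM of those reads matched the signal within 4.9e-11, so values are called CPM. Replicate libraries differed beyond sampling noise, and the series calls them biological replicates without naming animals.

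Values were tested as log2(CPM + 0.5) in limma, its variance prior following intensity, over 11781 genes that reached 1 CPM in 2 or more libraries, 2-sided, with Benjamini-Hochberg adjustment over all of them and genotype as the only term. Such fold changes understate those of low genes. edgeR's quasi-likelihood test on the recovered reads called 19 genes, as did limma, and DESeq2 called 66. The tests were checked on simulated reads. Poisson intervals (95%) cover counting error only.

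Members and lists were chosen with earlier results of these data known. Named were the members, Piezo1, per partner list the up to 4 genes with the smallest p and any that passed, per marker list up to 3 of the highest mean, and 3 nearest profiles of 4 members. Of these, 1 gene is counted but not reported here. Positions and exon lengths came from GENCODE release M21 on GRCm38, with 12704 of 12799 symbols found. Alternatives were other pseudocounts, filters, scalings, variance models and class assignments, the replicate number as a block and each library left out. A limit of 10 CPM on the members was added after seeing the data. Fits used limma 3.58.1, DESeq2 1.42.0 and edgeR 4.0.16 under R 4.3.3, and tables and plots used pandas 2.3.3, SciPy 1.17.1, matplotlib 3.10.9 and NumPy 2.4.6 under Python 3.11.15.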

Additional observations from a re-analysis of the deposited data

How the results depend on the processing

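Of 147 values of single members under these alternatives, 126 kept their direction and their side of the threshold, 6 lost the call, 13 gained one and 2 changed sign: Lum was −0.49 to 0.01 with 1 library left out, positive without knockout 1, and Dcn −0.46 to 0.18, positive without knockout 2. The 6 lost calls were those of Thbs1 and Fbn1 without either control and in limma without an intensity trend. Without the trend 4 genes and 0 members were called, and DESeq2 called 66 genes and 7 members. With 1 library left out, where the lone library is taken to vary like the others, 7 to 76 genes and 0 to 5 members were called, the median over the members was −0.70 to −0.56 and the difference between the class medians was −0.52 to −0.26. That difference, the pair that macrophages also make minus the connective tissue class, was −0.41 with all libraries. It was −0.21, and the median over the members −0.80, with a filter at 5 CPM or with only the members of 10 CPM or more, which both leave out Dcn and Lum. The class difference was −0.19 with Sparc counted among the genes that macrophages also make. The cause of the other shifts was not tested. With the replicate number as a block 89 genes and 6 members were called. Same-numbered libraries did not deviate together (r = −0.00159 across genes). With 2 libraries a group this is a single value, which cannot settle whether same-numbered libraries were paired. Thbs3, Dcn and Lum had only 13 to 75 reads per library, and counting error and replicate spread were not separated for them.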
